A study of Mus musculus with 16 samples.

Results

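The genes described here are 10 members of the Wnt receptor and beta-catenin pathway: the Frizzled receptors Fzd5, Fzd6, Fzd7 and Fzd10, the co-receptors Lrp5, Lrp6 and Ptk7, beta-catenin itself (Ctnnb1), and Apc and Axin2 of the complex that destroys it. They are 10 of the 54113 gene identifiers listed in all 16 count files, and were found by gene identifier. The set was selected on the measured levels of Fzd10 and Ptk7, which are lower in old than in young wild-type (WT) cells of these libraries. Values of the members in that comparison are therefore given as a description with no test.

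Wnt proteins are secreted ligands that bind a Frizzled receptor together with Lrp5 or Lrp6. Without a ligand, a complex built on Axin and Apc marks beta-catenin for destruction, and with a ligand beta-catenin accumulates and joins the TCF and LEF factors on DNA. In the thymus, the pathway and its factors Tcf7 and Lef1 are known for their part in early T cell development, and Ptk7 is known as a pseudokinase co-receptor that also acts in planar cell polarity.

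RNA was sequenced in bulk from mouse thymic double-positive (DP) cells, the stage that carries both CD4 and CD8, sorted by flow cytometry. Of the 16 libraries, 10 were labelled with an age: 4 from old WT, 3 from young WT and 3 from young METTL3 KO. The other 6 were labelled with a genotype and no age: 3 WT and 3 METTL3 KO. METTL3 is the methyltransferase that places N6-methyladenosine on messenger RNA. The labels give no strain, no age in weeks, no Cre driver and not the part of the gene that was deleted. Nothing in them says that replicates came from separate animals. By sex read from Xist, every group but WT without an age held both sexes, so those groups hold libraries from different animals. Whether each replicate is a separate animal is not known, so a p-value here measures spread among samples of which some may be technical. Levels are CPM (read counts relative to the library total, scaled by TMM within each set), with mean ± SD, and differences are on the log2 scale, with the SE.

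Gene counts summed to 9781368 to 10307780 in each library with an age, 15927134 to 16167074 in WT without an age and 10575795 to 13740694 in METTL3 KO without an age. Unaligned entries made up 0.577% to 0.826% with an age and 50.5% to 52.2% without one. Entries outside genes made up 47.5% to 51.2% with an age and 7.23% to 15% without one. Levels were compared only within a set. Mettl3 did not separate the libraries labelled young METTL3 KO (62.1, 64.5 and 64.3 CPM) from young WT (66, 65.7 and 59.5 CPM). Its log2 difference was -0.0022 ± 0.08 (edgeR's quasi-likelihood test with Benjamini-Hochberg adjustment, adjusted p = 1), so the gene count does not bear out that label. The deleted part of the gene is not given, and a count over the whole gene need not fall when a part is lost. The count therefore cannot decide on the label. Mettl3 overlaps Tox4 on the other strand, and counts with an age appear to mix strands (values beside Ctnnb1), so this check is partial. Without an age, Mettl3 was at 54.5, 47.2 and 45.1 CPM in WT and 32.5, 38.6 and 27 CPM in METTL3 KO, a log2 difference of -0.58 ± 0.18 (adjusted p = 0.0189), where the lower quartile over all genes was -0.61. Cd4, Cd8a, Cd8b1 and Rag1, which define DP cells, averaged over 900 CPM in every group.

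RefSeq promoters of GRCm38.p6 (the build called mm10), reaching from 250 bases before to 50 after a start site, were found for 6 of the 10 members. They were searched on both strands for CTTTG, the core that TCF and LEF factors bind. The letters occur in 53.9% of 32851 such promoters, and the longer spellings, in which the core is followed by a pair of letters that are each A or T, in 16.9%. The core occurred in Fzd7, Fzd10 and Ptk7 and not in the windows of Fzd5, Ctnnb1 and Axin2, and a longer spelling occurred only in Fzd7 among these 6. The sequences below show where the letters lie in the pair of genes that chose the set and in Fzd7, with the match in capitals, read on the strand of the gene. Fzd10 is shown as a 30-base window, at chr5:128600956-128600985 (+), because GENCODE places its promoter window inside an exon. Ptk7 (chr17:46629505-46629754, -) and Fzd7 (chr1:59481897-59482146, +) are shown as the 250 bases before the start.
Fzd10: ggaagaagaggcCAAAGtttgcgcgctgag
Ptk7: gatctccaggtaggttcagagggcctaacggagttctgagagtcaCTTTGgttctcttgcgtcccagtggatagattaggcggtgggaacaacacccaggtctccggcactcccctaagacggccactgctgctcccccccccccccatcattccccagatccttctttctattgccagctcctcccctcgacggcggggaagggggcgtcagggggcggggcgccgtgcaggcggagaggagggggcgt
Fzd7: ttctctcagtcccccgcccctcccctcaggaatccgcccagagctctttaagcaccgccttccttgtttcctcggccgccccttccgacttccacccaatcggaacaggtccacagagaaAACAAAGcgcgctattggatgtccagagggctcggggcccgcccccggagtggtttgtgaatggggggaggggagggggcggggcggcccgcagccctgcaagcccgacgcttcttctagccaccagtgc
The capitals mark the core in Ptk7, the core as it reads from the other strand in Fzd10, and the longer spelling, also from the other strand, in Fzd7. The core itself starts 138 bases before the start site in Fzd10, 205 in Ptk7 and 128 in Fzd7. With the core in over 50% of promoters, these matches describe the windows and show no binding.

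Fzd10 (ENSMUSG00000081683) is a single-exon receptor gene on chromosome 5 at 128600844 to 128604093, plus strand, of mm10. Young WT libraries held 51, 181 and 151 counts, or 4.96, 18.1 and 15.2 CPM. Old WT libraries held 7, 8, 3 and 3 counts, or 0.684, 0.793, 0.322 and 0.29 CPM. The groups did not overlap, although the young WT libraries themselves spanned a wide range. The means were 12.8 ± 6.92 CPM in young WT (n = 3) and 0.522 ± 0.254 CPM in old WT (n = 4), a log2 difference of -4.57 ± 0.49, or 23.8-fold lower. Of 14228 genes tested, 1 had a lower log2 difference.

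Ptk7 (ENSMUSG00000023972), on chromosome 17 at 46564471 to 46629504, minus strand, varied far less within groups. It was at 18.7, 18.3 and 17.7 CPM in young WT and at 10.1, 11.2, 9.24 and 11 CPM in old WT. No old library reached the level of any young one. The log2 difference was -0.81 ± 0.12, or 1.76-fold lower, with 177 genes lower than it. These are the 2 of 9 tested members that passed the threshold in the comparison that chose them, where 0.253% of all genes passed and 0.127% passed as lower, and also the 2 whose groups did not overlap, as for 4.13% of genes in that direction. Nothing is read from either count.

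Sex, read from Xist, and foreign transcripts vary among these libraries. Among females, Fzd10 was at 4.96 CPM in the young library and 0.684 and 0.793 CPM in the old ones, and among males at 18.1 and 15.2 CPM against 0.322 and 0.29 CPM. Among females, Ptk7 was at 18.7 CPM in young and 10.1 and 11.2 CPM in old WT, and among males at 18.3 and 17.7 CPM against 9.24 and 11 CPM. No old library reached a young one for either gene, so a split by sex could not give another order. Nothing on sex is read from it. Summed myeloid markers were at 37.7 to 265 CPM in old WT and 30.9 to 33.9 CPM in young WT, and summed markers of mature single-positive T cells at 611 to 922 CPM against 532 to 557 CPM, so neither overlapped. All 9 mature T cell, 9 B cell and 8 myeloid markers tested had a log2 difference above 0 with age, and 0 passed the threshold. Old WT replicate 3 held the most B cell, myeloid and dendritic transcripts (summed markers 2130, 265 and 63.1 CPM, against at most 495, 33.9 and 8.06 CPM in young WT). Without it the log2 difference was -4.41 for Fzd10 and -0.76 for Ptk7. The part of the shift over all old libraries was not tested. In bulk RNA, fewer cells of a kind that express a gene and less of its RNA per cell cannot be told apart.

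The other members showed no such separation with age. Fzd5 (ENSMUSG00000045005, chromosome 1 at 64730558 to 64737751) was at 4.28, 4.11 and 3.73 CPM in young WT and 5.37, 7.24, 3.44 and 4.35 CPM in old WT. Fzd7 (ENSMUSG00000041075, chromosome 1 at 59482424 to 59486955) was at 1.66, 2 and 1.41 CPM in young WT and 2.54, 2.28, 1.93 and 1.64 CPM in old WT. Fzd6 (ENSMUSG00000022297, chromosome 15 at 39006034 to 39038188) was counted 0, 7 and 1 times in young and 0, 1, 0 and 2 times in old WT, too few to be tested in any comparison. The log2 differences of Fzd5 and Fzd7 were 0.34 ± 0.26 and 0.31 ± 0.29, and the old libraries overlapped the young ones in both. Per kilobase of exon, Fzd10 was thus the most abundant of these 4 receptors in young WT and was below Fzd5 and Fzd7 in each old WT library.

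Beta-catenin, the effector of the pathway, barely differed. Ctnnb1 (ENSMUSG00000006932, chromosome 9 at 120929216 to 120960507) was at 468.6, 463.8 and 492.0 CPM in young WT and 409.6, 486.0, 495.6 and 472.0 CPM in old WT, a log2 difference of -0.03 ± 0.09 with a 95% interval of -0.22 to 0.16. The co-receptors Lrp5 (ENSMUSG00000024913, chromosome 19 at 3584828 to 3686564) and Lrp6 (ENSMUSG00000030201, chromosome 6 at 134446476 to 134566965) had log2 differences of 0.10 ± 0.14 and -0.01 ± 0.15. Axin2 (ENSMUSG00000000142, chromosome 11 at 108920349 to 108950783), a destruction complex scaffold that is itself a widely used Wnt target, had 0.23 ± 0.14, and Apc (ENSMUSG00000005871, chromosome 18 at 34220924 to 34322552) 0.11 ± 0.11. Among old WT libraries, replicate 4 was highest for Lrp5 (65.8 CPM), Lrp6 (129.9 CPM), Axin2 (34 CPM) and Apc (178.3 CPM).

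**Figure D1:**
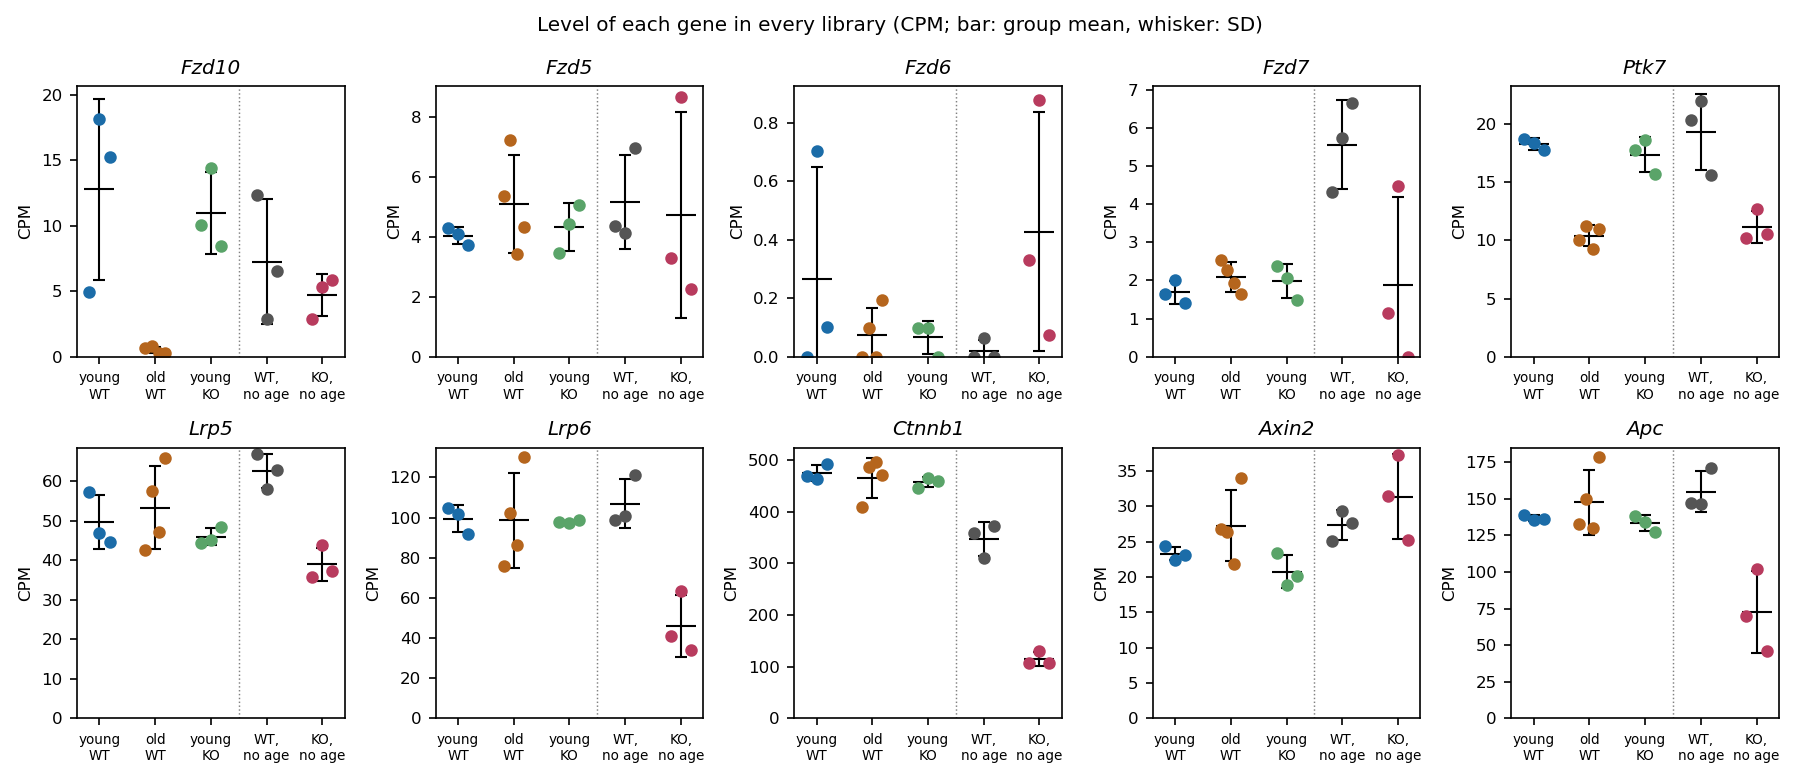
Level of each of the 10 genes in every library, in CPM on linear axes that start at 0, by group, with 1 point per library, the group mean as a bar and the SD as a whisker that ends at 0 where it would pass below it. The dotted line separates libraries with and without an age, whose levels were not compared, and the old WT points lie below all young WT points for Fzd10 and Ptk7.

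Per kilobase of exon, Ctnnb1 was the most abundant member in all 5 groups, at 91.5 CPM per kb in young WT. It was followed there by Apc (8.5), Lrp6 (7.28), Lrp5 (5.09), Axin2 (4.23), Fzd10 (3.93), Ptk7 (3.39), Fzd5 (0.584), Fzd7 (0.373) and Fzd6 (0.0555 CPM per kb). The ranges of Axin2 and Fzd10 overlapped in young WT, as did those of Fzd10 and Ptk7, and no other neighbours in that order did. In old WT, Fzd10 was ninth of the 10 at 0.161 CPM per kb and Ptk7 sixth at 1.93 CPM per kb. Among METTL3 KO libraries without an age, Axin2 was second at 5.69 CPM per kb, with a range that overlapped that of Apc at 4.5 CPM per kb.

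The 3 genes whose pattern over the 10 libraries with an age was nearest to that of Fzd10 were Igf2bp3, Wscd1 and Cdc42bpa. Nearness is the root mean square difference between centred log2 CPM values, which was 0.724, 1.09 and 1.1. Igf2bp3, an RNA-binding protein of fetal tissues, averaged 32.9 ± 5.55 CPM in young WT, 3.7 ± 0.907 CPM in old WT and 31.1 ± 2.49 CPM in the libraries labelled young METTL3 KO. Nearest to Ptk7 were Lgalsl, Pde5a and Cdon, at 0.11, 0.171 and 0.186. Cdon, a cell surface co-receptor of hedgehog signalling, averaged 28.3 ± 2.22, 20 ± 2.2 and 25.4 ± 1.45 CPM in the same order. These are descriptions over 10 libraries that differ mainly by group, and they say nothing of shared control.

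**Figure D2:**
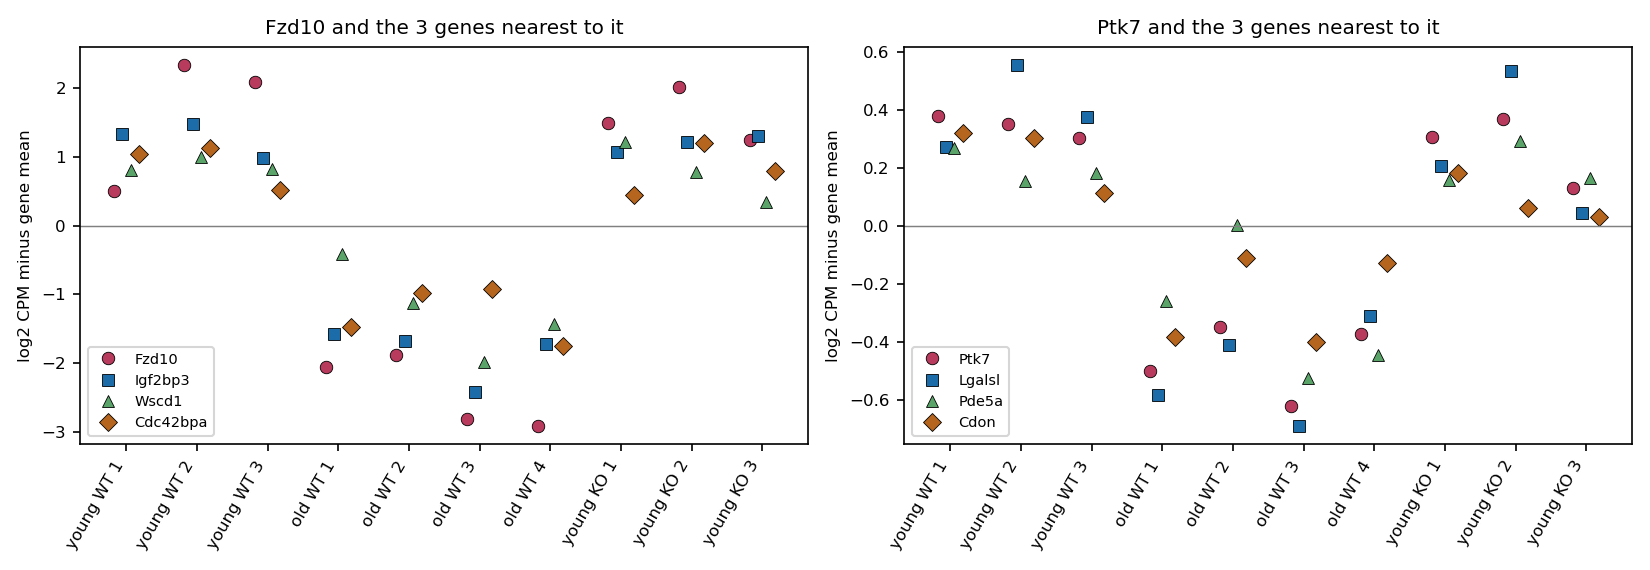
Centred log2 CPM (log2 CPM minus the mean of the gene) of Fzd10 on the left and Ptk7 on the right in the 10 libraries with an age, each with the 3 genes nearest to it, 1 symbol per gene. The old WT libraries lie below 0 for Fzd10 and for Ptk7, and the vertical scales of the panels differ.

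The gene nearest to Fzd10 on the chromosome, 5930412G12Rik, starts 151 bp away on the other strand (chromosome 5 at 128579106 to 128600693) and was chosen after its values were seen. Young WT libraries gave it 2, 22 and 10 counts and old WT libraries 2, 1, 0 and 1, a log2 difference of -3.35 ± 0.81 that did not pass the threshold (edgeR's quasi-likelihood test, adjusted p = 0.167). In the libraries labelled young METTL3 KO it had 13, 16 and 9 counts. Of the genes within 100 kb of Ptk7 that were tested, 0 passed the threshold.

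The wider pathway was read from a list of 123 other Wnt genes, of which 66 had enough counts to be tested in the libraries with an age. With age, 0 of the 66 passed the threshold by edgeR's quasi-likelihood test, 11 had an unadjusted p under 0.05, as 1716 of all 14228 genes had, and the median log2 difference was 0.05, against 0.0063 over all genes. DESeq2 called 1 gene, the ligand gene Wnt8b, which is named after its values were seen, and limma-voom 0. Wnt8b was at 8.76, 6.71 and 5.64 CPM in young WT and 11.4, 13.3, 12.1 and 12.9 CPM in old WT, with no overlap, as for 5.65% of genes in that direction. Its log2 difference was 0.82 ± 0.21, with an adjusted p of 0.206 by edgeR and 0.0459 by DESeq2, and a range of 0.0459 to 0.777 over the settings tried. Tcf7, the most abundant TCF factor of the list, differed by -0.03 ± 0.11 (adjusted p = 0.922) and Lef1 by 0.22 ± 0.10 (adjusted p = 0.403), both named after their values were seen.

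The libraries labelled young METTL3 KO were close to young WT for every member. Fzd10 was at 10, 14.4 and 8.45 CPM, within the range of young WT, and Ptk7 at 17.8, 18.6 and 15.7 CPM. Their log2 differences were -0.22 ± 0.39 and -0.07 ± 0.13, given with no test because these comparisons share the young WT libraries. Of the other 7 members tested, 0 passed the threshold, as for 0% of all genes, with 88 of 14228 genes at an unadjusted p under 0.05 and 0 called by DESeq2 or limma-voom. Ctnnb1 was at 446.6, 465.6 and 460.0 CPM, a log2 difference of -0.05 ± 0.09 with a 95% interval of -0.26 to 0.15. On the log2 scale Fzd5 differed by 0.10 ± 0.28 and Fzd7 by 0.23 ± 0.31. Lrp5 differed by -0.11 ± 0.15, Lrp6 by -0.02 ± 0.16, Axin2 by -0.17 ± 0.15 and Apc by -0.04 ± 0.11, and all 7 had an adjusted p of 1. Groups overlapped in all 9, where 4.71% of genes did not overlap and were lower and 4.55% were higher. Of the wider list, 0 of 66 passed by edgeR, DESeq2 or limma-voom, and 1 had an unadjusted p under 0.05.

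In METTL3 KO against WT without an age, libraries that the choice of members did not use, 5 of the 9 members tested fell and 0 rose: Ctnnb1, Lrp6, Apc, Ptk7 and Lrp5. Over all 16432 genes tested in this comparison 53.9% passed the threshold, 24% as lower and 29.9% as higher, so a call alone sets a gene little apart. The median log2 difference of the 9 members was -0.79 and that of all genes 0.08. The 5 calls were kept in each of the 14 alternative settings. With sex as a covariate the difference rests on METTL3 KO replicate 3, the only male KO library, because all WT libraries are male.

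Ctnnb1 was at 358.5, 311.1 and 372.5 CPM in WT and 106.3, 130.1 and 107.8 CPM in METTL3 KO. The highest KO library was below 50% of the lowest WT library. The means were 347.4 ± 32.2 and 114.7 ± 13.3 CPM (n = 3 each), and the log2 difference was -1.60 ± 0.16, or 3.03-fold lower (edgeR's quasi-likelihood test with Benjamini-Hochberg adjustment, adjusted p = 6.15e-05), and 4.74% of genes had a lower difference. Ctnnb1 shares 759 bp of exon with Ulk4 on the other strand. Ulk4 was listed at 0.781 to 1.24 CPM in WT and 2.36 to 4.62 CPM in METTL3 KO without an age. It was at 155 to 174 CPM in the libraries with an age, where counts appear to mix strands. Across single-exon genes that lie antisense to an expressed gene, the median ratio of read density to that gene was 0.759 to 1.01 with an age and 0 without. A share of Ctnnb1 counts with an age therefore cannot be assigned to a strand. The same limit holds for Fzd5 and Axin2, which share 1233 bp of exon with Gm38058 and 209 bp with Gm11670 on the other strand. With an age Gm38058 had 4 to 12 counts and Gm11670 25 to 50, against 0 and 0 to 5 without.

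The co-receptors fell too. Lrp6 was at 98.8, 100.8 and 121.1 CPM in WT and 40.8, 63.2 and 34 CPM in METTL3 KO, a log2 difference of -1.22 ± 0.22 (2.33-fold lower, adjusted p = 0.001). Lrp5 was at 66.8, 58.1 and 62.7 CPM in WT and 35.8, 43.8 and 37.3 CPM in METTL3 KO, a log2 difference of -0.68 ± 0.16 (1.61-fold lower, adjusted p = 0.00433). Ptk7 was at 20.3, 22 and 15.6 CPM in WT and 10.2, 12.7 and 10.5 CPM in METTL3 KO, a log2 difference of -0.79 ± 0.22 (1.73-fold lower, adjusted p = 0.0107). No KO library of these 3 genes reached the WT range. Members whose groups did not overlap and were lower numbered 5 of 9 with Ctnnb1 and Apc, against 29.5% of all genes.

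Of the members in the destruction complex, Apc fell and Axin2 did not pass. In the wider list, 13 of 23 genes of Dishevelled, this complex and its regulators fell (56.5%, against 24% of all genes). Another 2 rose (8.7%, against 29.9%). Axin1 (-0.75 ± 0.16), Gsk3a (-0.82 ± 0.17) and Gsk3b (-0.71 ± 0.17), named after their values were seen, were among those that fell. Apc was at 146.9, 146.6 and 171 CPM in WT and 69.7, 101.9 and 46 CPM in METTL3 KO, a log2 difference of -1.10 ± 0.24 (2.14-fold lower, adjusted p = 0.00297). Axin2 was at 25.1, 29.3 and 27.7 CPM in WT and 31.5, 37.3 and 25.2 CPM in METTL3 KO, so the groups overlapped. Its log2 difference was 0.20 ± 0.19 (adjusted p = 0.415) with a 95% interval of -0.23 to 0.62.

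The Frizzled receptors did not pass the threshold in these 6 libraries. Fzd10 was at 12.3, 2.86 and 6.58 CPM in WT and 2.89, 5.34 and 5.9 CPM in METTL3 KO, a log2 difference of -0.62 ± 0.48 (adjusted p = 0.291). Fzd5 was at 4.38, 4.14 and 6.97 CPM in WT and 3.3, 8.67 and 2.27 CPM in METTL3 KO, a log2 difference of -0.13 ± 0.47 (adjusted p = 0.838). Fzd7 had 66, 90 and 102 counts in WT and 14, 51 and 0 in METTL3 KO, a log2 difference of -1.59 ± 0.85 (adjusted p = 0.14). Fzd6 had 0, 1 and 0 counts against 4, 10 and 1 and was not tested. METTL3 KO replicate 2 stood above the other KO libraries for both Fzd5 and Fzd7. Without it Fzd7 passed the threshold, at -3.35 (adjusted p = 0.00715). Fzd7 also passed with no filter on low counts (adjusted p = 0.022) and with limma-voom (0.0183). With sex as a covariate its log2 difference was -9.27. That value rests on METTL3 KO replicate 3, the only male KO library, which had 0 counts.

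**Figure D3:**
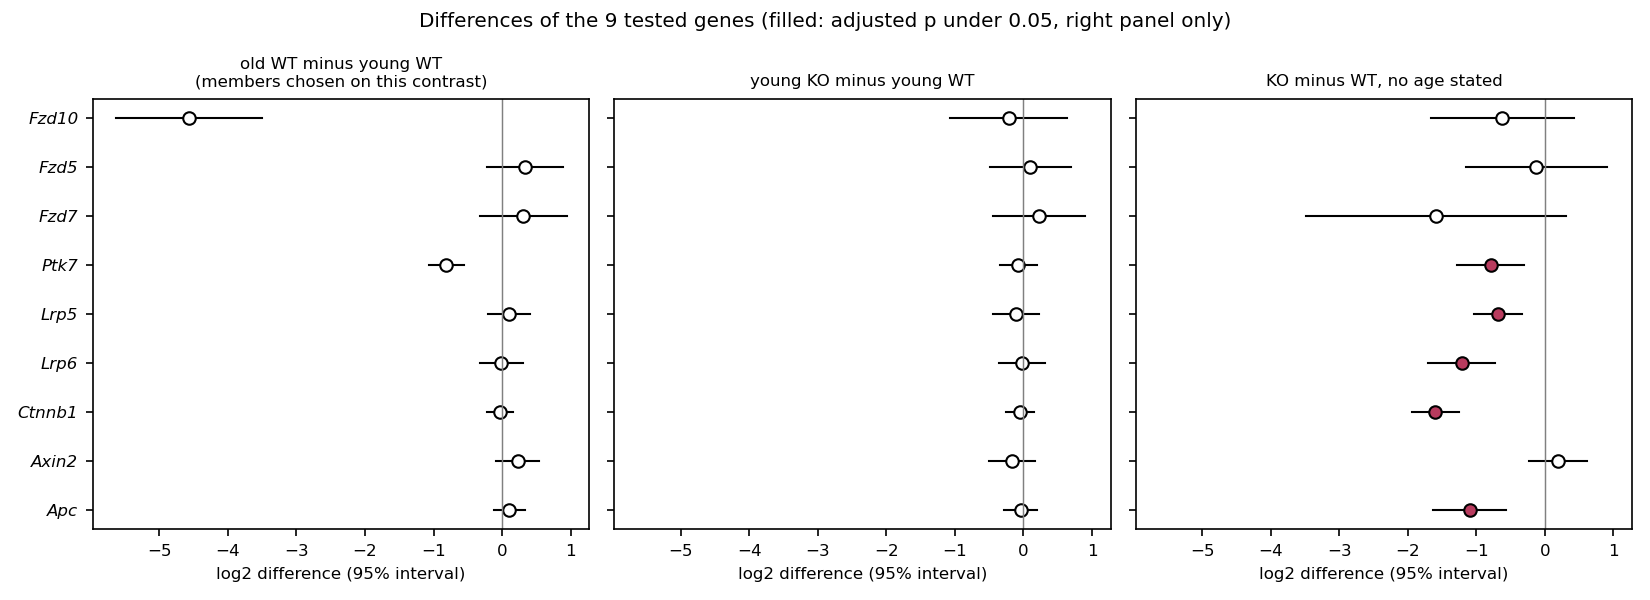
Log2 differences of the 9 genes tested, with 95% intervals as lines, for old minus young WT, libraries labelled young METTL3 KO minus young WT, and METTL3 KO minus WT without an age. Filled points in the right panel mark the 5 genes with an adjusted p under 0.05, all left of 0.

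Other measures moved with genotype in the set without an age. Summed DP markers were at 17200 to 19100 CPM in WT and 9340 to 11800 CPM in METTL3 KO, with 7 of 11 lower, among them Rag1 at a mean of 5852 against 1077 CPM. Summed B cell markers were at 534 to 634 CPM in WT and 742 to 1170 CPM in METTL3 KO, with 8 of 10 higher. Dendritic markers were at 4.43 to 5.6 against 9.9 to 27.6 CPM (4 of 6 tested higher) and myeloid markers at 18 to 26.6 against 36.3 to 44.1 CPM (2 of 8 tested higher), and no KO library had any of these 3 sums in the WT range. Over all genes, 24% passed as lower and 29.9% as higher. The share of entries outside genes was 7.23% to 7.6% in WT and 11.8% to 15% in METTL3 KO. Their part in the differences of the members was not tested. All 3 WT libraries and METTL3 KO replicate 3 were male by Xist and the other KO libraries female. The male KO library was at 107.8 CPM for Ctnnb1, 34 CPM for Lrp6, 46 CPM for Apc, 37.3 CPM for Lrp5 and 10.5 CPM for Ptk7. Every KO library lay below every WT library for these genes, so its place below the male WT libraries was fixed. Nothing on sex is read from it.

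Of the wider list, 79 genes were tested without an age: 18 rose, 29 fell and 32 did not pass. That is 36.7% lower, against 24% of all genes, and 22.8% higher, against 29.9%, and the median log2 difference was -0.29 against 0.08. Among Dishevelled and the destruction complex with its regulators, 13 of 23 fell and 2 rose. Tnks and Tnks2, the tankyrases that mark Axin for destruction, fell by 1.97 ± 0.23 and 1.43 ± 0.20 on the log2 scale (adjusted p = 0.000117 and 0.000254). Csnk1a1, the casein kinase that first phosphorylates beta-catenin, fell by 1.19 ± 0.16 (adjusted p = 0.00022). Dvl1, a Dishevelled protein that relays the signal from Frizzled, rose from 112.4, 113.3 and 100.4 CPM in WT to 211.5, 210.9 and 237.2 CPM in METTL3 KO, by 1.02 ± 0.14 on the log2 scale (adjusted p = 0.000259).

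Of 7 ligand and secretion genes tested, 4 rose (57.1%, against 29.9% of all genes) and 2 fell (28.6%, against 24%). The low-count filter keeps a gene that is high enough in the libraries of either group. A gene near 0 in WT was therefore tested only if METTL3 KO was high, and could only rise. The counts of rises rest partly on this filter. Wls, which carries Wnt proteins to the surface, fell from 73.9, 77.8 and 92.1 CPM to 33.7, 39.6 and 30.8 CPM, by 1.23 ± 0.17 (adjusted p = 0.000248). Wnt4 had 11, 8 and 6 counts in WT and 121, 125 and 137 in METTL3 KO, a log2 difference of 4.25 ± 0.36 (adjusted p = 4.73e-05). Wnt1 had 0, 1 and 0 counts in WT and 35, 19 and 23 in METTL3 KO (adjusted p = 0.000375), and Wnt5a had 4, 2 and 0 against 16, 25 and 28 (adjusted p = 0.00251). All 3 ligands were under 1 CPM in every WT library, and every KO library was above all WT libraries, as for 34.3% of all genes. Of the stroma and endothelium markers tested, 4 of 6 rose in the same libraries, Col1a1 from 8 to 12 counts in WT to 39 to 63 in METTL3 KO, although their sum, most of it Pecam1, was 141 to 164 CPM in WT and 116 to 141 CPM in METTL3 KO. Thymic epithelium markers had 2 of 5 higher and 1 lower, with sums of 35.3 to 44.2 CPM in WT and 37.4 to 42.7 CPM in METTL3 KO. The part of these markers, and of the B cell and dendritic ones above, in the rises of ligands, Sfrp1 and Bmp4 was not tested.

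Receptors and secreted inhibitors of the list were also low. The R-spondin receptors Lgr5 and Lgr6 rose, Lgr5 from 13, 14 and 2 counts to 62, 64 and 94 (3.23 ± 0.55 on the log2 scale, adjusted p = 0.000667) and Lgr6 from 18, 10 and 1 to 43, 53 and 49 (2.65 ± 0.66, adjusted p = 0.00569). Znrf3, a ligase that removes Frizzled from the membrane, fell by 0.67 ± 0.20 (adjusted p = 0.0152), and Kremen1, a receptor for Dkk inhibitors, by 0.64 ± 0.20 (adjusted p = 0.0155), with 4 of the 8 receptors tested not passing. Of these receptors 25% rose and 25% fell, near the 29.9% and 24% of all genes. Lgr5 and Lgr6 did not pass the low-count filter by WT libraries alone and were tested through METTL3 KO. The share that rose therefore rests on this filter. Of 13 genes listed under secreted inhibitors, among them the Dkk-like gene Dkkl1, 2 were tested and both rose, where 29.9% of all genes rose. Dkkl1 rose by 2.58 ± 0.55 (adjusted p = 0.00231), and Sfrp1 had 2, 0 and 1 counts in WT and 9, 13 and 10 in METTL3 KO (adjusted p = 0.00533). Sfrp1 passed the low-count filter only through METTL3 KO, so it could only rise. Of 8 planar polarity genes tested, Prickle3 (0.96 ± 0.20) and Scrib (0.44 ± 0.16) rose, and Vangl2 (-0.51 ± 0.17) and Celsr1 (-0.45 ± 0.17) fell, with adjusted p of 0.00201, 0.033, 0.0226 and 0.0451. These shares, 25% in each direction, were near those of all genes (29.9% higher and 24% lower).

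Among 19 nuclear factors tested, 4 rose (21.1%, against 29.9% of all genes) and 7 fell (36.8%, against 24%). Tcf7l2 and Tcf7l1, TCF factors that were low in these cells, rose by 2.49 ± 0.31 and 2.15 ± 0.38 on the log2 scale (adjusted p = 0.000153 and 0.000846). Tcf7l2 was at 3, 4.39 and 1.95 CPM in WT and 16.2, 16.2 and 20.4 CPM in METTL3 KO. The co-repressor Tle2 rose by 1.21 ± 0.24 (adjusted p = 0.00151), and the acetyltransferase Ep300 fell by 1.18 ± 0.23 (adjusted p = 0.00146). Tcf7, which was at 4693, 4398 and 4445 CPM in WT, was at 2403, 2988 and 3308 CPM in METTL3 KO, a fall of 0.64 ± 0.18 (adjusted p = 0.00977). Lef1 differed by 0.03 ± 0.14 (adjusted p = 0.893). Tcf7 and Lef1 were named after their values were seen.

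Genes known as Wnt targets in other tissues moved in both directions, with a median log2 difference of -0.12. Of 18 tested, 3 were higher (16.7%, against 29.9% of all genes) and 5 lower (27.8%, against 24%). Sox4, a factor of lymphocyte precursors, fell from 372.9, 378.2 and 380.2 CPM to 53.3, 108.8 and 58.3 CPM, by 2.36 ± 0.25 (adjusted p = 7.83e-05). Bmp4 had 2, 1 and 3 counts in WT and 61, 48 and 29 in METTL3 KO (4.78 ± 0.65, adjusted p = 0.000216), and Sox9 had 13, 0 and 3 against 69, 28 and 52 (3.51 ± 0.81, adjusted p = 0.00384). Both passed the low-count filter only through METTL3 KO, as did Lgr5, the other target that rose. Axin2, the member of the set most used as a target, did not pass, as given above.

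**Figure D4:**
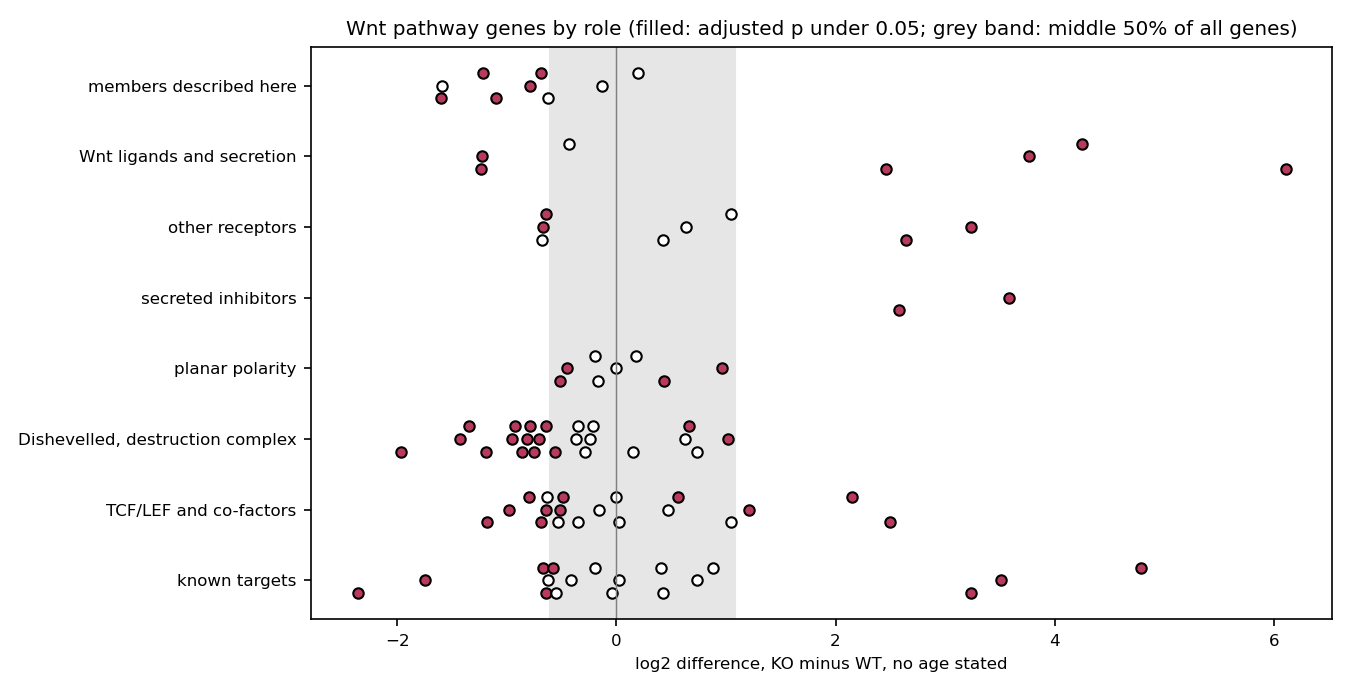
Log2 difference of METTL3 KO minus WT without an age, 1 point per gene tested, for the 9 members and for the wider list by role, filled where the adjusted p is under 0.05. The grey band holds the middle 50% of all 16432 genes (-0.61 to 1.09), and 12 of the 15 filled points of the destruction complex row lie to its left.

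The genotype difference without an age was set against that of the libraries labelled young METTL3 KO by an interaction term fitted over 12 libraries. Counts were scaled by TMM over all 12 for this fit, and within each set for the comparisons above. The term therefore need not equal the difference between the values given above. It was tested for 7 members and not for Fzd10 and Ptk7, whose differences between sets were -0.23 ± 0.68 and -0.55 ± 0.24. Ctnnb1 (-1.37 ± 0.15, adjusted p = 3.01e-05), Lrp6 (-1.02 ± 0.25, adjusted p = 0.00571) and Apc (-0.88 ± 0.28, adjusted p = 0.024) were more strongly lower without an age, which makes 3 of 7. Over all 16557 genes 36.9% passed, 17.7% as lower, with a median of 0.14. Lrp5 did not pass (-0.40 ± 0.18, adjusted p = 0.0871) and neither did Axin2 (0.53 ± 0.22, adjusted p = 0.0738), Fzd7 (-1.64 ± 1.02, adjusted p = 0.216) or Fzd5 (-0.05 ± 0.57, adjusted p = 0.992). Lrp5 passed in 11 of 20 alternatives, without any 1 of the 3 young WT, the 3 libraries labelled young METTL3 KO or the 3 METTL3 KO libraries without an age (-0.77 to -0.54), with no filter on low counts and with sex as a covariate. Axin2 passed without METTL3 KO replicate 3 (0.48, adjusted p = 0.0499), and Fzd7 without METTL3 KO replicate 2 (-3.54, adjusted p = 0.00301) and with no filter (adjusted p = 0.00466). Of the wider list, 11 of 79 genes passed as higher (13.9%, against 19.2% of all genes) and 15 as lower (19%, against 17.7%). Sox4 (-2.23 ± 0.28, adjusted p = 7.46e-05) and Dvl1 (1.12 ± 0.14, adjusted p = 6.88e-05) had the smallest p among targets and among Dishevelled and destruction complex genes. Strand counting and alignment differ between the sets as well and cannot be told apart from them, and whether age differs is not known, since the second set carries no age.

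The letters GGACT, the best known core of sites that METTL3 methylates, were counted on the sense strand of the longest coding transcript of each member. Lrp5 held 17, or 3.29 per kb, and 98.7% of 12837 tested coding genes held fewer per kb, with a median of 1.05. Lrp6 (2.03), Ctnnb1 (1.93), Fzd10 (1.85) and Ptk7 (1.42 per kb) also lay above the median, Axin2 (1.17) and Fzd5 (1.16) close to it, and Fzd6 (0.694), Apc (0.624) and Fzd7 (0.221 per kb) below. Of the 5 members lower in METTL3 KO without an age, 4 therefore lay above the median and Apc below it. Among the tested members that did not pass there, Fzd10 also lay above the median, Axin2 and Fzd5 close to it and Fzd7 below it. Whether these letters relate to the differences was not tested. The letters describe the transcripts, and methylation was not analysed here.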

How the data were processed

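Bulk RNA sequencing of sorted DP cells gave 1 file of raw counts per gene and library, as deposited by the authors. HISAT2 2.0.5 and mm10 are named per the submitters' processing notes; a counting program, annotation or use of strand is not given in the sources used here. Rows that name no gene stayed out of library totals and tests. Counts were tested with edgeR 4.0.16 (R 4.3.3, limma 3.58.1): filterByExpr, TMM, a robust quasi-likelihood fit, two-sided tests and Benjamini-Hochberg adjustment over all genes at 0.05. Age and young KO came from 1 fit of 10 libraries, KO without an age from 6, the interaction from 12. Each fit was scaled over its own libraries. The alternatives tried were scaling by library size or by DESeq2 size factors, testing every gene or those at 1 CPM in 3 libraries, limma-voom and DESeq2 1.42.0, adding sex (Xist over 100 CPM) or a replicate block, fitting the compared groups alone, and leaving out each library. The procedure was tested on simulated data. Positions came from GENCODE on mm10 and promoters from RefSeq. Files of the set with an age list 55335 identifiers and the others 54532, with 54113 in both.

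The text names all 10 members, markers and some of the genes that overlap a member. Of the wider list it names up to 4 called genes with the smallest p per role and comparison. The 3 genes nearest to Fzd10 and to Ptk7 are also named. They were taken from genes with a mean of at least 1 CPM and a symbol that does not start Gm or end Rik. Other names are said to be chosen after their values were seen. The members and lists were chosen with earlier results of these data known. Tables and figures used Python 3.11.15, pandas 2.3.3 and matplotlib 3.10.9. All libraries entered the tests. Replicates differed by more than sampling noise.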

Additional observations from a re-analysis of the deposited data

Results flagged for a closer look

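For 3 members the difference between libraries labelled METTL3 KO and WT was unequal in the sets with and without an age, by the interaction test of edgeR. The difference between sets, on the log2 scale, was -1.37 for Ctnnb1, -1.02 for Lrp6 and -0.88 for Apc. Each was lower in 3 of 3 KO libraries than in all WT libraries without an age, as were 29.5% of all genes. Each overlapped young WT in the libraries labelled young METTL3 KO. In the set with an age the Mettl3 count did not separate the libraries labelled young METTL3 KO from young WT. The sets also differ in alignment and strand counting, whose part was not tested.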

How the results depend on the processing

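Calls were compared over 14 to 20 alternatives in each comparison. The members called without an age numbered 5 or 6 in all of them and the wider list 39 to 55 genes, against 5 and 47; for age the wider list had 1 call with DESeq2 and 0 elsewhere, and for young KO 0 throughout. Calls of members in the interaction rose from 3 to 5 with no filter on low counts and ranged from 3 to 5 with 1 library left out, the highest without METTL3 KO replicate 2 or 3; the first 3 were kept throughout. Small differences that had not passed changed sign: for young KO with 1 library left out, Fzd5 ranged from -0.029 to 0.23, Lrp5 from -0.18 to 0.0090 and Lrp6 from -0.080 to 0.014. Without an age, Fzd5 was 0.0024 with library size alone and -0.97 to 0.15 with 1 library left out, and Axin2 was -0.12 with sex as a covariate and -0.029 to 0.26 with 1 left out. In the interaction Fzd5 ranged from -1.02 to 0.17. The cause was not tested. Replicate numbers do not pair the samples (correlations of same-numbered deviations from -0.229 to 0.0869), and with the replicate block the members called stayed at 5 without an age and 3 in the interaction, and the wider list at 0 for age, 0 for young KO and 42 without an age. Depth limits Fzd6, Fzd7 and Fzd10 in old WT, which rest on few counts.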
